A study of Rattus norvegicus with 9 samples.

Results

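Among the transcripts counted in PC12 cells, 202 stood above their untreated level in cells given erastin and below it in cells given erastin together with PQR NPs. They were chosen from 41078 rat transcripts, of which 25127 had a count in at least 1 library, by the order and size of the group means. The level was expressed in CPM, the count scaled to a library total of 1000000. A transcript was a member if its mean with erastin was at least 5 CPM and the log2 ratio to control (0.5 CPM added to each mean) was at least 0.41 with erastin and at most -0.41 under co-treatment. These limits are a 1.33-fold excess and a level of 0.753 of control. In addition, every erastin library had to lie above every control library, every control library above every co-treated library, and the mean of all 9 libraries below 1000 CPM. Because the group means of all 3 groups chose the members, their differences between groups are given as a description. Calls of a test over all transcripts are counted further on and are no independent support, since the rule used the same contrasts.

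PC12 is a rat cell line from a pheochromocytoma of the adrenal medulla, kept as a neuron-like model, and was labelled wild type in all 3 groups. The groups were untreated cells, cells treated with erastin, and cells treated with erastin and PQR NPs, with 3 libraries each. PQR NPs are a nanodelivery system whose composition, like the doses, the times and the origin of the libraries of a group, was not stated. A group given particles without erastin was not analysed here, so that what the particles do in cells without erastin cannot be told apart from what they do against erastin. Poly(A) RNA of whole cultures was sequenced, and in such bulk samples fewer cells of a type and less RNA per cell cannot be told apart. Library totals ran from 34772755 to 40826754 counts, and where a library has no count, as many as 3 counts (0.0735 to 0.0863 CPM) remain possible.

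Erastin blocks the cystine/glutamate antiporter of the cell membrane. Cells then run short of cysteine for glutathione, which the lipid peroxide reducing enzyme GPX4 needs, and iron-dependent oxidation of membrane lipids leads to ferroptosis. Cells in this state are known to switch on amino acid starvation, antioxidant and iron handling genes. The gene table used here, of RefSeq genes, holds no Ensembl transcript IDs, and none of the IDs could be paired with a gene through it (0 of 41078 matched), so that which of these pathways the members belong to was not determined, and the marker genes of chromaffin cells could not be checked. Single members are called by their rank in level with erastin (level rank), in ratio of erastin to control (rise rank) or in fall of the co-treated mean below control (fall rank). No sequence is shown for the same reason, and CPM are not corrected for transcript length, so a rank by level is a rank of counts.

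The members made up 5.83% of 3463 transcripts that met the same conditions on erastin and control. Under co-treatment, another 126 of the 3463 (3.64%) had a mean at or below the limit of -0.41 but overlapped with control. For 961 (27.8%) the log2 ratio of co-treated to control lay between -0.41 and 0, for 1252 (36.2%) between 0 and 0.41, and for 922 (26.6%) at 0.41 or above. Few of the transcripts that were higher with erastin thus ended below control by this margin. The members had a median of 19.8 CPM in control and 45.1 CPM with erastin. In control the median was 13.7 CPM for the 126, 20.2 for the 961, 16.3 for the 1252 and 11.1 for the 922, and with erastin it was 42.1, 47.5, 40.3 and 29.1 CPM. The 922 that ended highest were thus the least abundant set in both groups. The median log2 ratio of erastin to control was 0.99 for the members, below those of the other sets, at 1.47, 1.07, 1.06 and 1.28 in the same order. The mirrored rule, with falls under erastin that end above control, held for 166 transcripts. Without the limits on fold and on the maximum, the mirrored order was the more common one. It held without overlap for 776 of 12180 transcripts at 5 CPM or more in a group (6.37%), and the order of the members for 372 (3.05%).

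**Figure D1:**
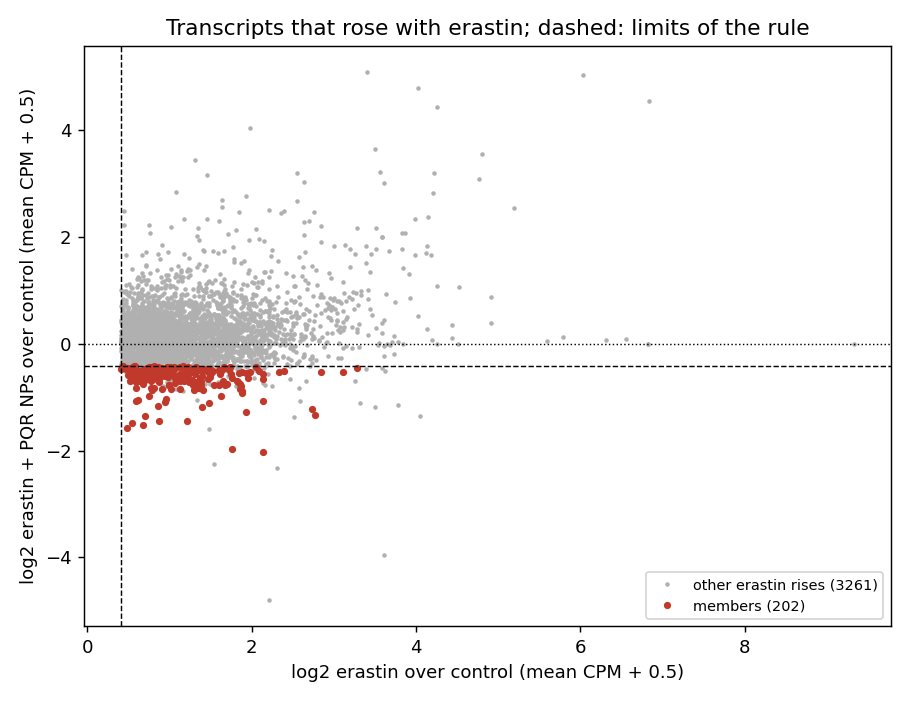
Each point is 1 of the 3463 transcripts higher with erastin, by the log2 ratio to control with erastin (x axis) and with erastin plus PQR NPs (y axis), with the limits of the rule dashed. The 202 members (red) lie under the limit of -0.41 and mostly close to it, with a median of -0.58, while grey points below the limit overlap with control. Both axes use the same control libraries.

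Summed over the 202 members, 0.764%, 0.872% and 1.05% of the counts of the control libraries fell on them, 1.67%, 1.90% and 2.04% in the erastin libraries, and 0.584%, 0.562% and 0.599% in the co-treated libraries. The group means were 0.896% ± 0.145, 1.87% ± 0.185 and 0.582% ± 0.0189 (SD, n = 3 each). The co-treated libraries lay close together and the control libraries far apart, from 0.764% to 1.05%. The 10 members with the most counts took 0.286% ± 0.0575, 0.611% ± 0.0928 and 0.182% ± 0.00690 of all counts in control, erastin and co-treated libraries. The remaining 192 took 0.610% ± 0.0876, 1.26% ± 0.0931 and 0.400% ± 0.0120 (SD, n = 3), so that most of the share lay outside the 10. The order of the groups is fixed by the rule for any part of the members.

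**Figure D2:**
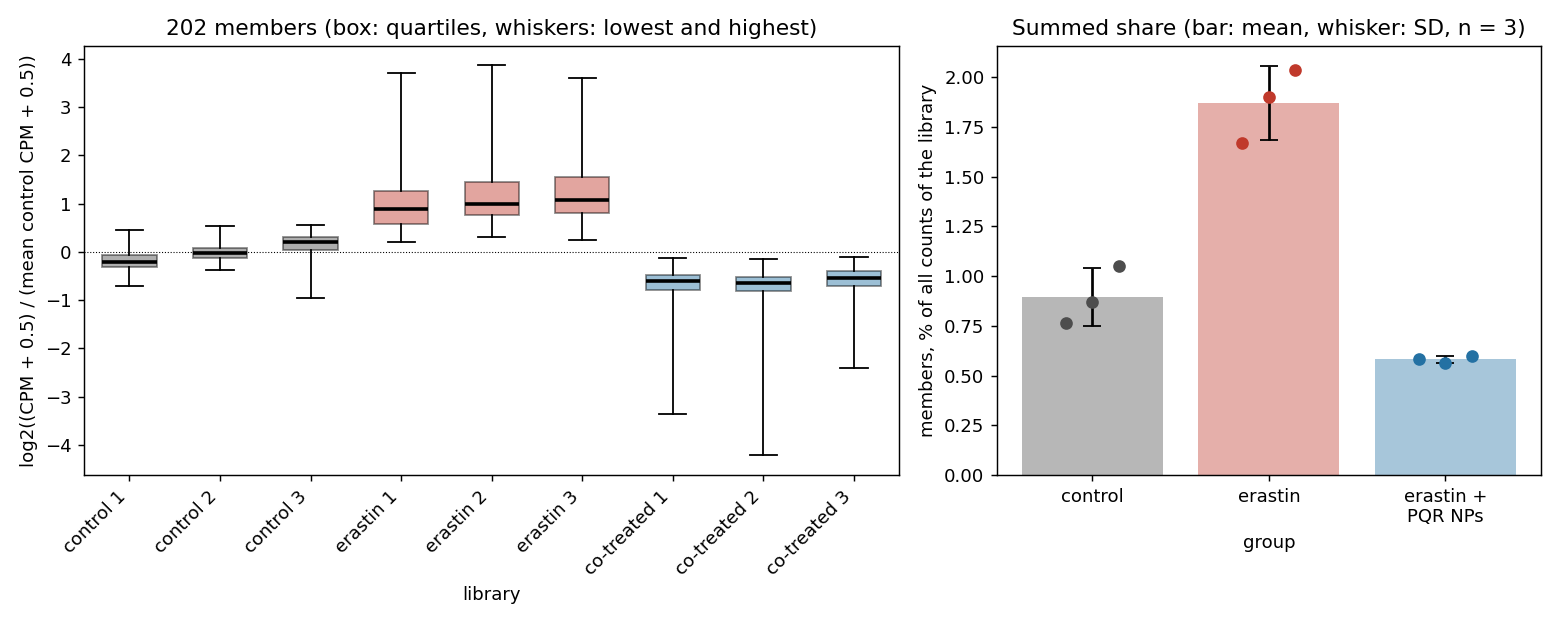
Left, log2 level of the 202 members relative to their own control mean in each of the 9 libraries (boxes: quartiles, whiskers: lowest and highest member). Right, share of each library's counts on the members (points: libraries, bars: group means, whiskers: SD, n = 3). The share averages 0.896%, 1.87% and 0.582% from left to right, and the control and erastin boxes shift within their groups.

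The sizes of both steps were moderate for most members. With erastin the level was a median 2.02-fold that of control (interquartile range 1.69 to 2.74), under 1.5-fold for 21 members, 1.5- to 2-fold for 77, 2- to 4-fold for 87 and 4-fold or more for 17. Under co-treatment it was a median 0.657 of control (interquartile range 0.594 to 0.697). It was above 0.667 of control for 82 members, between 0.5 and 0.667 for 98 and at 0.5 or less for 22. From erastin to co-treatment the level differed by a median 3.35-fold (range 1.80 to 29.6), by 2-fold or more for 197 members, 4-fold or more for 72 and 8-fold or more for 11. The drop from erastin to co-treatment was a median 1.34 times the excess over control (interquartile range 1.21 to 1.53, highest 2.68). A total of 13 members combined an excess of 2-fold or more with a co-treated level of 0.5 of control or less.

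Close to the limits, the 2 members with the smallest excess had log2 ratios of 0.416 and 0.433, and the 2 transcripts that failed only this condition most narrowly had 0.397 and 0.399. On the side of the fall, the members nearest the limit were at -0.4108 and -0.4121, and the nearest transcripts outside it were at -0.4080 and -0.4090. Of the transcripts that failed 1 condition only, 126 overlapped between control and co-treatment, 114 missed the limit on the fall and 36 overlapped between erastin and control. Another 17 missed the limit on the excess, 16 the minimum of 5 CPM and 1 the maximum of 1000 CPM.

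By level with erastin, 47 members were at 100 CPM or more, 146 between 10 and 100 CPM and 9 between 5 and 10 CPM. Counts were ample in control and erastin libraries, with at least 32 in any control library and 124 in any erastin library for each member. In co-treated libraries the median count was 499.5, and 4 members had no count in 1 of the 3 libraries. The size of the fall below control differed little across levels: the median co-treated level was 0.656 of control for the 39 members under 20 CPM with erastin, 0.644 for the 66 from 20 to 50 CPM, 0.659 for the 50 from 50 to 100 CPM and 0.684 for the 47 at 100 CPM or more.

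The member with the most counts with erastin, ENSRNOT00000009431, stood at 261, 327 and 462 CPM in the control libraries, 871, 1027 and 1152 CPM in the erastin libraries and 243, 237 and 253 CPM in the co-treated libraries. It was 2.90-fold above control with erastin and at 0.698 of control under co-treatment. Its co-treated libraries were nearly alike, and control 1 exceeded the highest of them by a factor of only 1.03. The member of level rank 2 had 470.4, 635 and 714 CPM in control, 896, 921 and 1111 CPM with erastin and 446, 429 and 438 CPM under co-treatment. In this transcript too the lowest control library came close to the co-treated ones, at 1.06 times the highest of them.

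Members of level ranks 3 and 7 had close control libraries. At rank 3 the control libraries held 189, 212 and 197 CPM, the erastin libraries 457, 725 and 1032 CPM and the co-treated libraries 126, 80.4 and 109 CPM. The erastin libraries of this member spread widely, while the lowest control library was 1.51 times the highest co-treated one. At rank 7 the values were 164, 155 and 162 CPM in control, 493, 399 and 378 CPM with erastin and 111, 102 and 101 CPM under co-treatment. Here the lowest erastin library was 2.31 times the highest control library, and the lowest control library 1.39 times the highest co-treated one.

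Among the 10 members with the most counts, the lowest co-treated level relative to control was that of level rank 9, at 0.392. It had 48.2, 48.6 and 63.9 CPM in control, 215, 385 and 506 CPM with erastin and 20.1, 22.8 and 20.1 CPM under co-treatment. This is a 6.89-fold excess with erastin and a 17.6-fold difference between erastin and co-treatment, with wide gaps on both sides of control. Next to it came level rank 4, at 293, 351 and 469 CPM in control, 553, 706 and 769 CPM with erastin and 140.03, 160.2 and 194 CPM under co-treatment, 1.82-fold above and at 0.444 of control. The other members among the 10, at level ranks 5, 6, 8 and 10, were 1.52- to 1.98-fold above control with erastin and at 0.640 to 0.700 of control under co-treatment.

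The largest ratio of erastin to control was that of ENSRNOT00000007738, at 10.9-fold. It held 3.60, 3.04 and 4.66 CPM in control, 10.5, 61.4 and 51.5 CPM with erastin and 2.90, 2.42 and 2.52 CPM under co-treatment. Erastin 1 stood far below the other erastin libraries for this transcript, and the co-treated level, 0.695 of control, was close under the lowest control library. The second largest ratio was 8.94-fold, with 10.7, 13.4 and 16.8 CPM in control, 74.6, 165 and 127 CPM with erastin and 8.50, 8.99 and 10.3 CPM under co-treatment. Erastin 1 was again the lowest of its group. The third, at 7.63-fold, had 4.96, 7.15 and 7.72 CPM in control, 43.3, 56.2 and 51.7 CPM with erastin and 4.84, 3.80 and 4.56 CPM under co-treatment, and the lowest erastin library was 5.61 times the highest control library. In all 3 the lowest control library exceeded the highest co-treated one by a factor of 1.03 to 1.05. The 17 members 4-fold or more above control with erastin had a median co-treated level of 0.661 of control, near that of all members. The rule holds all members under the same limit. In the test given further on, 6 of these 17 were called lower than control under co-treatment. Among all 202 members 120 were, and 9.21% of all transcripts tested.

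The member that ended lowest relative to control, at 0.161 of it, had 5.30, 6.18 and 2.09 CPM in control, 24.8, 25.1 and 14.8 CPM with erastin and 0, 0.710 and 1.48 CPM under co-treatment. The last 3 values are 0, 29 and 58 counts, so the co-treated level rests on few reads and varies between libraries. The second lowest, at 0.235 of control, had 12.8, 17.9 and 21.1 CPM in control, 51.0, 69.8 and 57.9 CPM with erastin and 6.24, 2.69 and 3.21 CPM under co-treatment. Its groups were set well apart, by factors of 2.42 and 2.06.

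Some members with a deep fall had only a small excess with erastin. Fall rank 3 held 34.2, 24.1 and 31.7 CPM in control, 40.7, 40.9 and 44.5 CPM with erastin and 10.2, 7.74 and 11.1 CPM under co-treatment, 1.40-fold above and at 0.323 of control. Fall rank 5 held 39.5, 41.8 and 38.9 CPM in control, 55.2, 61.5 and 60.0 CPM with erastin and 12.7, 14.4 and 15.2 CPM under co-treatment. Its lowest control library was 2.56 times its highest co-treated library, the widest gap of any member, and its libraries agree closely within each group. Fall rank 7 followed, with a gap of 2.48, but its excess with erastin was larger, at 1.85-fold. It held 27.5, 32.1 and 30.7 CPM in control, 46.9, 58.8 and 61.2 CPM with erastin and 10.3, 11.0 and 11.1 CPM under co-treatment.

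**Figure D3:**
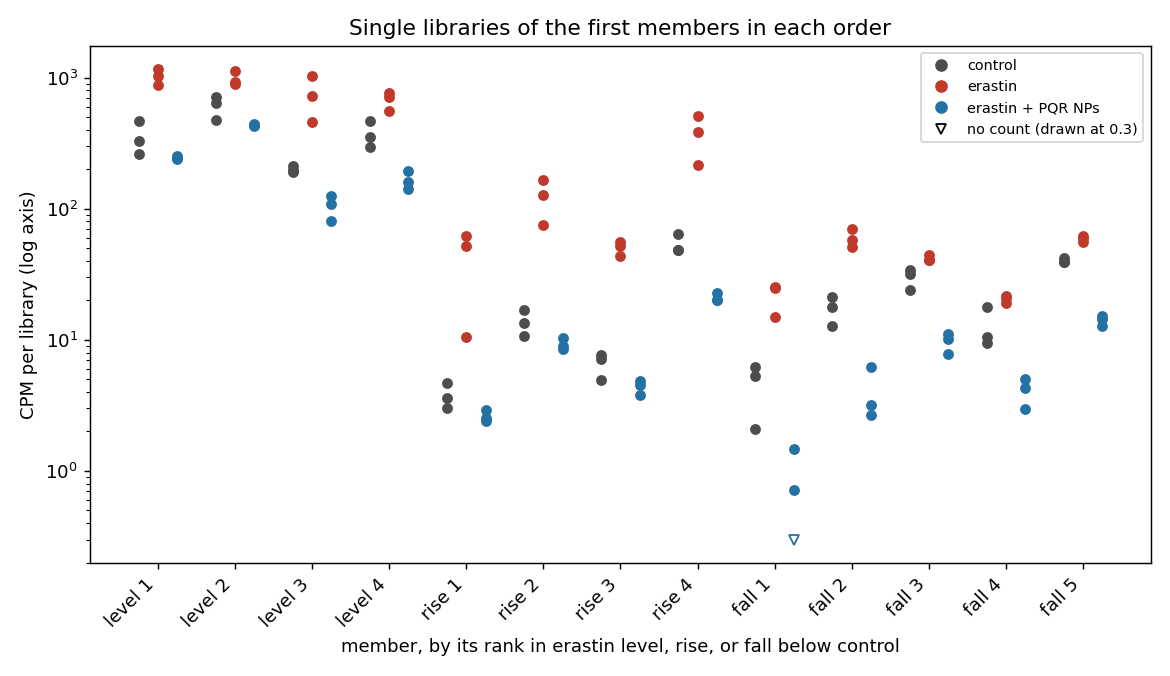
CPM in each library (log axis) of the first 4 members by level with erastin, the first 4 by ratio of erastin to control and the first 5 by fall below control; a library without a count is drawn as an open triangle at 0.3. The groups do not overlap in any member, as the rule demands, but for rise ranks 1 to 3 the control and co-treated libraries nearly touch, whereas for fall ranks 2 to 5 they are set apart.

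The members with no count in 1 co-treated library were fall ranks 1, 10, 11 and 17. That library was co-treated 1 for rank 1 and co-treated 2 for ranks 10, 11 and 17. The co-treated libraries held 5.29, 0 and 4.64 CPM of rank 10 and 2.14, 0 and 2.86 CPM of rank 17. Fall rank 11, which is also rise rank 5, had 204, 187 and 138 counts in control, 2438, 625 and 587 with erastin and 93, 0 and 106 under co-treatment. Such a switch within a group leaves the assignment of reads among transcripts of a gene uncertain, and the way reads were divided was not stated.

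The separation of the groups was narrower below control than above it. The lowest erastin library was a median 1.48 times the highest control library, and 2-fold or more for 49 members. The lowest control library was a median 1.15 times the highest co-treated library, and 1.5-fold or more for 15. For 71 members control and co-treatment were apart by a factor under 1.1, and for 22 erastin and control were. Both gaps reached 1.2 in 61 members. Among all 11386 transcripts at 5 CPM or more with erastin, 3.27% had co-treated libraries below control libraries and these below erastin libraries without overlap, 372 in number, and the rule took the members from these.

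In edgeR's quasi-likelihood test, fitted over all 17123 transcripts that passed its filter on low counts, every member was tested. With erastin 195 of the 202 were called higher than control at an adjusted p of 0.05, where 26.6% of all transcripts tested were. Between co-treatment and erastin 200 were called lower, against 25.9% of all tested, and between co-treatment and control 120 were called lower, against 9.21%. Since the rule used these contrasts, the counts describe how the members stand in the test and are no support. The median log2 fold change of the members in that fit was 1.02, -1.82 and -0.67 in the 3 comparisons, against 0.02, -0.02 and -0.03 over all tested. All 3 calls were made for 119 members, and 76 were called in both comparisons with erastin but not against control. The 119 are 58.9% of the members and 64.0% of the 186 transcripts with all 3 calls in these directions. Of the other 67, 46 missed the limit on the fall and 27 that on the excess. Of the members described singly above, level ranks 1, 6, 8 and 10, rise ranks 1 and 2 and fall rank 1 were not called lower than control. Fall ranks 10, 11 and 17 were not called there either, and these and fall rank 1 were not called higher with erastin. Level ranks 2, 3, 4, 5, 7 and 9, rise rank 3 and fall ranks 2, 3, 5 and 7 had all 3 calls.

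The number called below control moved most with the settings. Members called there had a median gap of 1.23 between control and co-treatment and a median of 57.5 CPM with erastin, and the 82 not called a gap of 1.09 and 35.0 CPM. The 120 became 53 without control 2, 59 without control 3, 76 without erastin 2 and 53, 41 and 51 without co-treated 1, 2 and 3. With no filter on low counts they were 69. Calls over all tested transcripts fell as well, from 9.21% to 4.91%, 5.19%, 6.27%, 4.81%, 3.74% and 3.89% without these libraries and 3.91% with no filter. In number they went from 1577 to 867, 915, 1102, 848, 659 and 686, and to 983 with no filter, where 25127 were tested. Calls were thus lost outside the members too, but the members lost a larger part of theirs in each of these settings. The 7 members not called higher with erastin had a median coefficient of variation of 87.2% in co-treated libraries, where the median over all members was 11.8%.

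Within the control group the members moved together, although the rule takes no account of which control library is high. Control 1 was the lowest of the 3 for 141 members (69.8%) and control 3 the highest for 139 (68.8%), and both held for 113. Among all 11290 transcripts at 5 CPM or more with erastin and under 1000 CPM in the mean, control 1 was lowest for 34.6% and control 3 highest for 38.0%. The median member was 1.30-fold higher in control 3 than in control 1, while the median of the 11290 was 0.992-fold. As the rule uses the mean and range of the same 3 libraries, this is a description and not a test.

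The erastin libraries showed the same kind of split. Erastin 1 was the lowest for 127 members (62.9%), against 34.2% of the 11290, and erastin 3 the highest for 104 (51.5%), against 25.9%. The median member was 1.18-fold higher in erastin 3 than in erastin 1, and the median of all 0.961-fold. For 85 members control 1 was lowest, control 3 highest and erastin 1 lowest. In the co-treated group the split was smaller: co-treated 3 was highest for 95 members (47.0%, against 32.9%), and the median ratio of co-treated 3 to co-treated 1 was 1.05. Control 1 and control 3 held 37520642 and 38206510 counts, and erastin 1 and erastin 3 held 37170587 and 34772755. The part of depth in the split was not tested, and the cultures behind the libraries were not stated.

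Other transcripts higher with erastin were split in the same way. Among the 126 transcripts below the limit but with overlap, control 1 was lowest for 70.6% and control 3 highest for 75.4%, and among the 961 between -0.41 and 0 the shares were 65.8% and 72.0%. They were 48.2% and 55.0% for the 1252 between 0 and 0.41, and 35.6% and 37.4% for the 922 at 0.41 or above, which is near the shares over all transcripts. Both shares were larger in each of the 3 sets below control than in either set above it. In the 166 mirrored transcripts control 1 was lowest for 15.7% and control 3 highest for 17.5%, the opposite leaning. All these sets are formed with ratios to the mean of the same control libraries. The shares, and their order over the sets, are therefore a description and not a test.

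**Figure D4:**
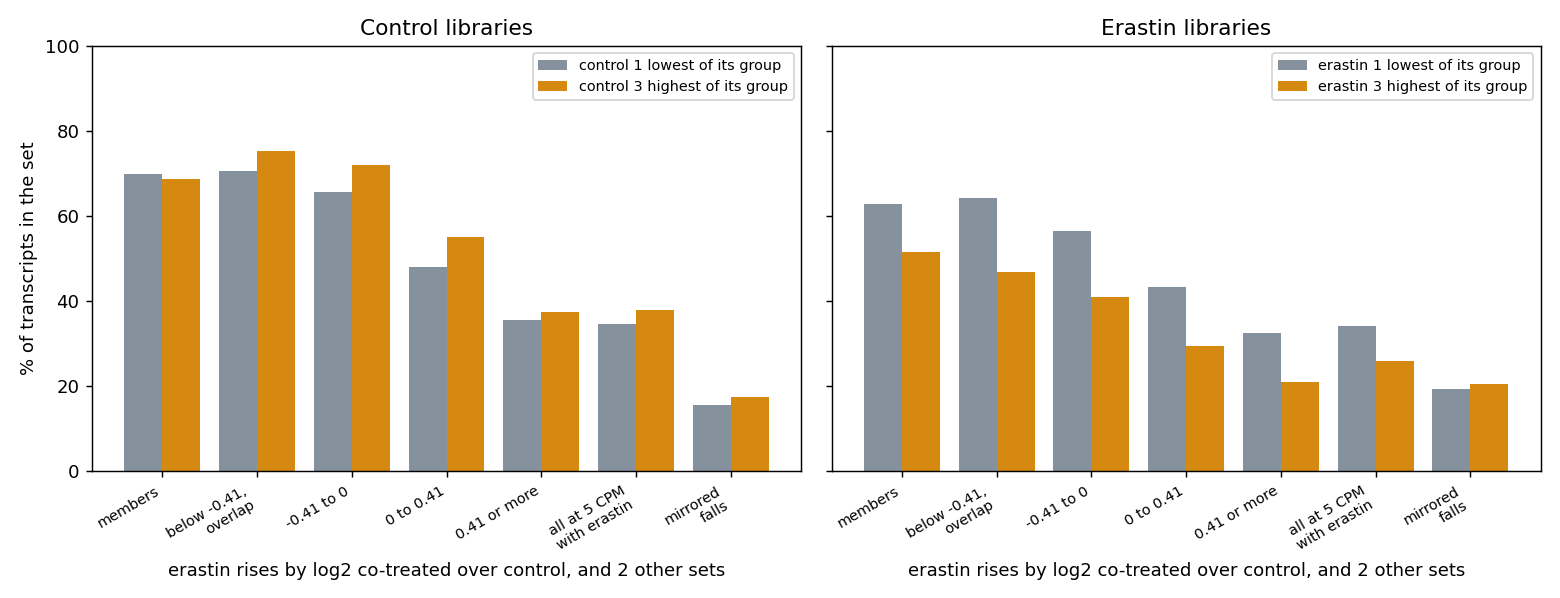
Share of transcripts (%) for which control 1 is the lowest and control 3 the highest of the control libraries (left), and likewise erastin 1 and erastin 3 (right). The sets are the transcripts higher with erastin, by their log2 ratio of co-treated to control, then all transcripts at 5 CPM or more with erastin, then the mirrored falls. The ratios that form the sets use the mean of the same control libraries. Members stand at 69.8% and 68.8% in controls, all transcripts at 34.6% and 38.0%, and the mirrored falls at 15.7% and 17.5%.

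Since the rule set every control library above every co-treated one, no member could end above control when 1 library was left out. The size of the fall did depend on control 3. Without control 3 the members' share of control counts was 0.818%, the median co-treated level was 0.715 of control (with 0.5 CPM added; 0.669 with all libraries), and 142 of the 202 still met the rule, the 60 others missing the limit on the fall. Without control 1 the median was 0.621 of control, 193 members met the rule, and it found 370 transcripts in all. Calls below control numbered 121 without control 1 and 59 without control 3, where 8.19% and 5.19% of all tested transcripts were called. Without any single one of the 9 libraries 111 members (55.0%) met the rule each time, with a median excess of 2.24-fold and a median co-treated level of 0.610 of control. The other 91 had medians of 1.85-fold and 0.696.

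The coefficient of variation within groups was larger for the members than for other transcripts of the same range. Its median over 3 libraries was 17.0% in control, 14.2% with erastin and 11.8% under co-treatment for the members, and 10.8%, 10.7% and 8.26% for 11088 others. The variation between libraries as fitted by edgeR was a median 21.0% for the members and 23.3% over all 17123 tested, which include transcripts of lower level. The control group, in which the split between libraries was largest, also had the largest spread for the members.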

How the data were processed

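The authors deposited raw counts, not normalized, in a table of 41078 Ensembl rat transcripts by 9 libraries, per the file headers. The submitters' processing notes name HISAT2 2.2.1 and the build Rnor 6.0. The roles of both, the counter, annotation release, strand setting and division of reads among isoforms were not stated, so isoforms, near-identical copies and antisense overlaps are uncertain. Members and lists were chosen with earlier results of these data known. CPM used column sums (Python 3.11.15, pandas 2.3.3). TMM and upper quartile scaling moved the median log2 ratios over all tested transcripts by less than 0.1. edgeR 4.0.16 (R 4.3.3, limma 3.58.1) was fitted to all 9 libraries with TMM, filterByExpr and Benjamini-Hochberg adjustment at 0.05, after a check on simulated data. DESeq2 1.42.0 and other scalings, filters, limits and left-out libraries were alternatives. Separate cultures are not named, so calls reflect only the spread of these samples, possibly a technical one. Floors cover counting error only.

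Members were to be named by symbol: the first 10 by level with erastin, 8 by ratio to control, 8 by fall below control, and those on 19 gene lists (564 entries) or a cell type marker list. As 0 IDs matched the RefSeq genes of GRCr8, members were described by rank, 2 of them by ID, and no list gave a result. The 4 members with no count in a library were singled out after their values were seen.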

Additional observations from a re-analysis of the deposited data

How the results depend on the processing

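The count of 202 members moved with the limits of the rule: 94 at a log2 limit of 0.58, 320 at 0.26 and 427 with no condition on overlap. It stayed within 1.5 times on TMM-adjusted library sizes (277), upper quartile adjusted sizes (216), with a pseudocount of 1 (198) or 0.1 (208) and with an erastin minimum of 10 CPM (193) or 2 CPM (215). All 202 were among the 277 and 200 among the 216. With 1 library left out the rule found 196 to 370.

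Members called higher with erastin numbered 173 to 194 with 1 library left out and 185 to 197 under the other alternatives, against 195 (over all tested transcripts 22.9% to 26.1% and 17.3% to 32.7%, against 26.6%). Those called lower than erastin under co-treatment numbered 198 to 201 and 199 to 201, against 200 (over all tested 21.6% to 25.4% and 15.9% to 31.4%, against 25.9%). Those called lower than control numbered 41 to 121 with 1 library left out, against 120, 69 with no filter on low counts, 81 with only the 6 libraries compared, 95 with upper quartile scaling, 127 with the stricter filter and 168 with DESeq2. The share of all tested transcripts called lower than control went from 9.21% to between 3.74% and 8.33% with 1 library left out. It was 3.91%, 7.88%, 7.43%, 11.8% and 12.5% in the order of the other settings. Members and share mostly moved in the same direction, but without control 1 the members called were 121 while the share was 8.19%. For the 25 members described by rank, the log2 ratios to control kept their direction and moved by less than 1 SD between libraries in each of 650 values under other scalings, pseudocounts and left-out libraries. With other pseudocounts and left-out libraries the direction could not change, as the rule allows no overlap with control. With the replicate number as a block, the calls were 192, 199 and 129 (26%, 25.4% and 8.89% of all tested). The labels do not say that the numbers pair the libraries. The correlation of same-numbered deviations ran from -0.0126 to 0.111, which falls short of the 0.1 asked of every pair, and a library matched its own number best in 9 of 18 cases, where 6 would be met if all numbers matched alike. Among the members library 1 was mostly the lowest and library 3 the highest in both control and erastin groups, so a pairing cannot be told from these data. Counts summed per gene were not run, as no ID could be paired with a gene. Other depths were not tried, and the number of libraries limits the precision.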
